A study of Mus musculus with 12 samples.

Results

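The genes described here are 46 antiviral interferon-stimulated genes of mouse macrophages, a list of transcripts that cells raise after sensing interferon. They were chosen by name, through the gene symbols of the array's probe annotation, with earlier results of these data known. A gene counts as measured where 3 or more of the 12 arrays gave a probe of that gene a detection p below 0.05. The brightest such probe stands for the gene. Of the 46 genes, 34 were measured in this way, among 8101 genes tested in all. The cells were RAW264.7, an established mouse macrophage line, in 4 groups of 3 biological replicates per the labels, with 1 Illumina bead array for each replicate. The groups were cells given CpG with gefitinib, cells given CpG alone, cells given gefitinib alone, and untreated cells. Gefitinib was given at 10 µM, from 1 h before CpG where both were used, and CpG at 10 µg/ml for 6 h. For cells without CpG, the labels give neither the incubation time nor a vehicle. All 4 groups are cultures of a single transformed line.

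CpG oligonucleotides imitate the unmethylated DNA of bacteria, and their receptor is TLR9, which sits in endosomes and signals through MyD88. In macrophages this leads to transcription of inflammatory genes and of interferon beta. Secreted interferon beta binds its receptor, whose kinases JAK1 and TYK2 set off the assembly of a complex with STAT2 and IRF9 that binds the interferon-stimulated response element of antiviral genes. Gefitinib is a drug against the kinase activity of EGFR, and it is known to bind other kinases as well. The series' design compares CpG with gefitinib against CpG alone, which asks what gefitinib does to the transcripts that CpG raises.

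The response element is shown first because genes of this kind are known for it. A core of its consensus, GAAANNGAAA, was searched on both strands in the 250 bases before each gene's start, in promoter sequences from RefSeq (build GRCm38.p6). Overlapping matches were allowed, and a run of GAAA repeats gives several. Of the 46 genes 35 had an entry, and 11 of these (31.4%) held a match in at least 1 entry. In the whole set of 27025 genes, 936 (3.46%) did, and among all 32851 promoter entries 978 (2.98%). Stretches of these promoters around the matches follow for 5 measured genes of different roles, 5′ to 3′ on the gene's strand, with the matched letters in capitals.
Isg15: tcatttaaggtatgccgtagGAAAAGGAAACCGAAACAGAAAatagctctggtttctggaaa
Rsad2: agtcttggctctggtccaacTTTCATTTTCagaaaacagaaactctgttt
Ifit3: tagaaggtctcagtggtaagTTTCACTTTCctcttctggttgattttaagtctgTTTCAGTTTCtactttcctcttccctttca
Oas1a: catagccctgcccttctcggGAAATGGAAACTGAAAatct
Bst2: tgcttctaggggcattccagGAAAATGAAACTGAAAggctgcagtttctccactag
The Isg15 stretch lies at chr4:156200855-156200916 on the minus strand and holds 3 overlapping matches, the farthest 78 bases before the start. The Rsad2 stretch is chr12:26456543-26456592 on the minus strand, with 1 match on the opposite strand, 120 bases before the start. The Ifit3 stretch is chr19:34583353-34583436 on the plus strand, with 2 separate matches on the opposite strand, the farther one 156 bases before the start. The Oas1a stretch is chr5:120907526-120907565 on the minus strand, with 2 overlapping matches, and the Bst2 stretch is chr8:71537567-71537622 on the minus strand, also with 2. The 7 measured genes with a match were higher with CpG alone than in untreated cells by 0.89 to 4.56 log2 units (median 2.28), and the 18 measured genes with an entry but no match by 0.47 to 4.71 (median 1.69). In each set 2 genes were detected on 0 untreated arrays and stand at their lower bounds. The ranges overlap, and a match is a description of the letters and not evidence of binding.

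CpG alone raised nearly the whole measured set, and in cells given CpG with gefitinib the same transcripts stood near their untreated level. In CpG with gefitinib against CpG alone, 33 of the 34 genes were lower and 0 were higher (limma, Benjamini-Hochberg adjusted p under 0.05 over all 8101 genes). Of all genes tested, 15.2% were lower and 22.0% higher. In CpG alone against untreated cells 32 of the 34 were higher and 0 were lower, against 10.0% higher and 15.3% lower among all genes. The median difference of the 34 was -1.99 log2 units for CpG with gefitinib against CpG alone and 1.85 for CpG alone against untreated cells, while all genes had medians of 0.06 and -0.06. On every array of CpG with gefitinib, 33 genes lay below every array of CpG alone, as did 19.0% of all genes tested. CpG alone lay above untreated cells on every array for 33 genes, against 14.1% of all genes. Relative to the untreated mean, the median of the 34 genes was -0.11, -0.12 and -0.08 log2 units on the arrays of CpG with gefitinib, 1.84, 1.98 and 1.91 on those of CpG alone, and -0.02, -0.10 and -0.11 on those of gefitinib alone. In these bulk samples fewer responding cells and less RNA per cell cannot be told apart.

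The detection filter bears on these counts. Oas3, Mx2, Rtp4, Isg20 and Sp100 were detected on the 3 arrays of CpG alone and on no other array, so they entered through the group in which they are high. Among the 29 other measured genes, which would have passed on the 9 remaining arrays, 28 were lower with CpG and gefitinib than with CpG alone. Of all genes that pass in this way 14.4% were lower. With CpG alone 27 of the 29 were higher than in untreated cells, as were 9.17% of all genes that pass in this way. Just outside the threshold were Ifih1, which encodes the double-stranded RNA sensor MDA5, and Trim30a, each detected on 2 arrays of CpG alone and on 0 others. Ifih1 stood at 4.39, 4.35 and 4.31 with CpG and gefitinib, 4.97, 5.20 and 4.53 with CpG alone, 4.49, 4.36 and 4.30 with gefitinib alone and 4.42, 4.55 and 4.36 in untreated cells. Trim30a stood at 4.31, 4.34 and 4.39 with CpG and gefitinib, 4.84, 5.16 and 5.30 with CpG alone, 4.31, 4.30 and 4.44 with gefitinib alone and 4.58, 4.40 and 4.29 in untreated cells. Parp9 was detected on 1 untreated array, and Ifit1, Mx1, Xaf1, Slfn8 and Ms4a4c on 0 of 12. Ifi44, Herc6, Dtx3l and Ddx60 had no annotated probe and were not analysed here.

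**Figure D1:**
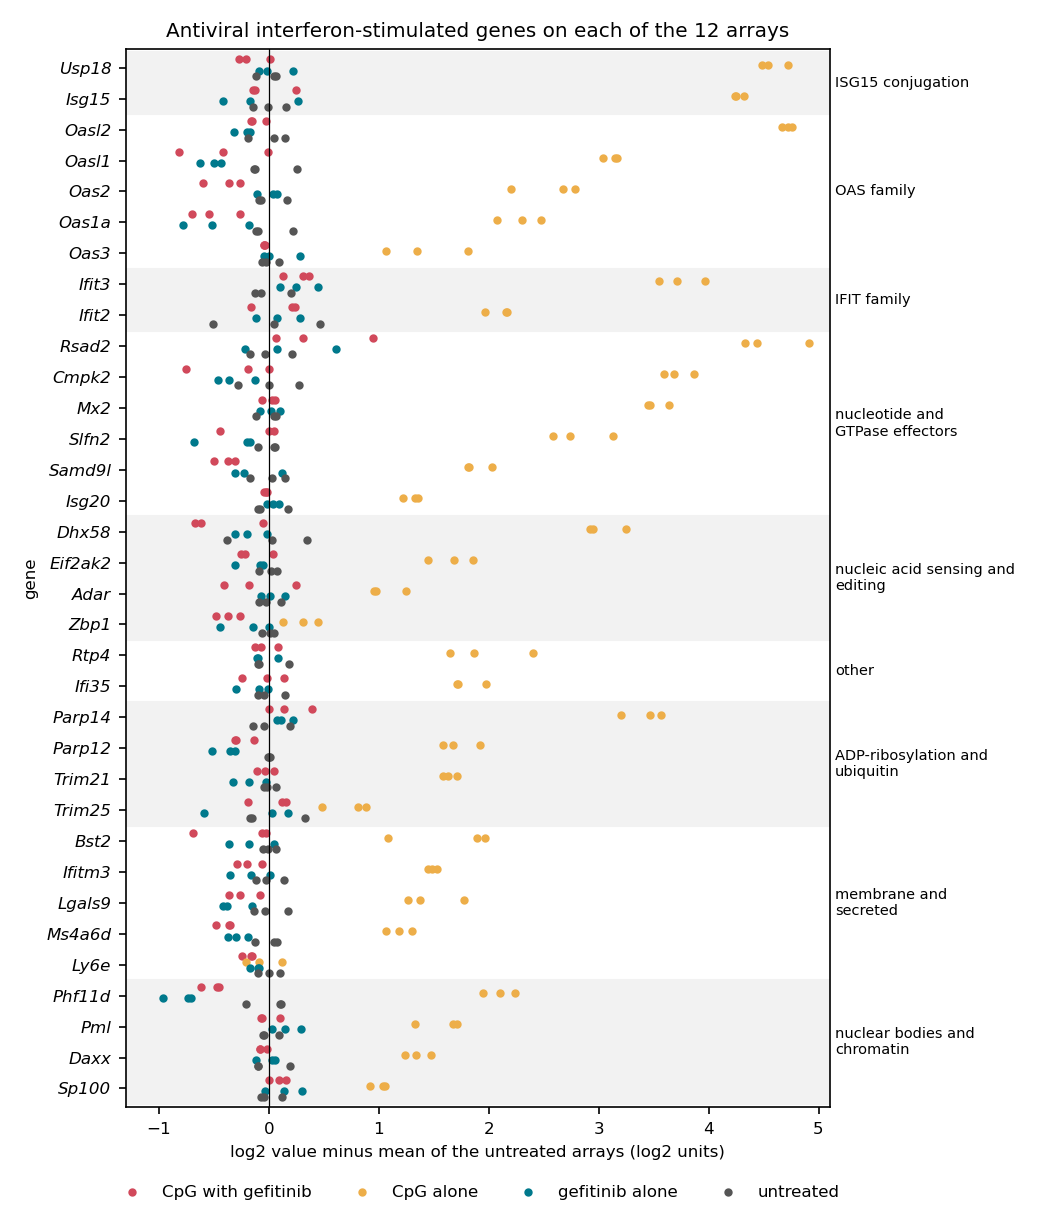
Log2 value on each of the 12 arrays minus the mean of the 3 untreated arrays (horizontal axis, log2 units) for the 34 measured genes (rows, grouped by role), each point being 1 array. The arrays of CpG alone lie to the right for all genes except Ly6e and, by less, Zbp1 and Trim25, while the arrays of CpG with gefitinib, gefitinib alone and no treatment lie around 0.

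Isg15 encodes a ubiquitin-like protein that is attached to other proteins during infection, and Usp18 the protease that removes it and also restrains signalling from the interferon receptor. The values below are normalized log2 intensities of the gene's probe, which can be compared between arrays but not between genes. Isg15 stood at 4.99, 5.01 and 5.38 with CpG and gefitinib, 9.38, 9.39 and 9.46 with CpG alone, 4.96, 4.72 and 5.41 with gefitinib alone and 4.99, 5.13 and 5.29 in untreated cells. The 3 arrays of CpG alone lay more than 3 log2 units above every other array. Isg15 was 19.5-fold lower with CpG and gefitinib than with CpG alone (log2 difference -4.28 ± 0.16, ± SE, with n = 3 arrays in each group here and below, adjusted p = 3.91e-10). Usp18 stood at 7.69, 7.41 and 7.47 with CpG and gefitinib, 12.16, 12.22 and 12.40 with CpG alone, 7.67, 7.59 and 7.90 with gefitinib alone and 7.75, 7.56 and 7.73 in untreated cells. Its arrays again separated into CpG alone and all others, and the difference between CpG with gefitinib and CpG alone was -4.74 ± 0.12 (adjusted p = 7.46e-12). The 3 probes of Usp18 gave log2 differences between -4.99 and -4.74.

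The OAS family makes or resembles enzymes that produce oligoadenylates in the presence of double-stranded RNA, which activate the antiviral nuclease RNase L. Of the 2 OASL proteins of mouse, Oasl1 lacks the enzyme activity and restrains translation of Irf7, while Oasl2 keeps the activity. All 5 measured members were higher with CpG alone than in untreated cells, beside 10.0% of all genes. All 5 were lower with CpG and gefitinib than with CpG alone, beside 15.2%. Among them, Oas3 passed the filter only through the arrays of CpG alone, where it is high. Oasl2 stood at 4.78, 4.91 and 4.78 with CpG and gefitinib, 9.69, 9.66 and 9.60 with CpG alone, 4.74, 4.62 and 4.76 with gefitinib alone and 5.08, 4.75 and 4.98 in untreated cells. It had the largest difference of the 34 genes between CpG with gefitinib and CpG alone (-4.83 ± 0.11, adjusted p = 1.82e-12), with detection on 1 of 3 arrays of CpG with gefitinib, 0 of 3 with gefitinib alone and 2 of 3 untreated. Oasl1 stood at 5.55, 5.94 and 6.35 with CpG and gefitinib, 9.51, 9.53 and 9.40 with CpG alone, 5.93, 5.87 and 5.73 with gefitinib alone and 6.62, 6.23 and 6.24 in untreated cells. Its difference between CpG with gefitinib and CpG alone was -3.53 ± 0.17 (adjusted p = 4.67e-09). The other kept probes of Oasl1 gave -3.06 and, at a probe detected with CpG alone only, -1.94. Oas2 differed by -2.96 ± 0.15 and Oas1a by -2.79 ± 0.17. Oas3 was at least 1.87-fold lower with CpG and gefitinib than with CpG alone (adjusted p = 1.13e-05). "At least" is written where the dimmer group had 0 arrays with detection, and the fold is then a lower bound, taken against the lowest value that any detected probe had on each of those arrays (or the probe's own value if higher), with the adjusted p of the fit. The neighbouring pairs Oasl2 and Oasl1, and Oas2 and Oas3, lie next to each other among the protein-coding genes of RefSeq.

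The IFIT proteins bind viral RNA and block its translation. Ifit3 stood at 4.75, 4.99 and 4.93 with CpG and gefitinib, 8.17, 8.34 and 8.59 with CpG alone, 4.73, 4.87 and 5.07 with gefitinib alone and 4.56, 4.82 and 4.49 in untreated cells. The arrays of CpG alone were more than 3 log2 units above all others. Its difference between CpG with gefitinib and CpG alone was -3.48 ± 0.14 (adjusted p = 6.17e-10), and it was at least 10.9-fold higher with CpG alone than in untreated cells (adjusted p = 2.87e-10). Ifit2, its neighbour in the genome, was detected on all 12 arrays and stood at 5.94, 6.31 and 6.34 with CpG and gefitinib, 8.07, 8.27 and 8.25 with CpG alone, 6.18, 6.38 and 5.99 with gefitinib alone and 6.57, 6.14 and 5.59 in untreated cells. Its arrays of CpG alone also lay above all others, and the difference between CpG with gefitinib and CpG alone was -2.0 ± 0.20 (adjusted p = 6.12e-06).

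Among effectors that act on nucleotides, RNA or membranes, Rsad2 encodes viperin, an enzyme that makes a chain-terminating nucleotide, and Cmpk2 the kinase that supplies its substrate. The genes are neighbours. Rsad2 stood at 4.85, 5.10 and 5.74 with CpG and gefitinib, 9.23, 9.12 and 9.70 with CpG alone, 4.57, 4.86 and 5.40 with gefitinib alone and 5.0, 4.62 and 4.75 in untreated cells. Replicate 3 of CpG with gefitinib was the highest outside CpG alone, yet lay more than 3 log2 units below the lowest array of CpG alone. The difference was -4.12 ± 0.24 (adjusted p = 2.96e-08), with detection on 2 of 3 arrays of CpG with gefitinib. Cmpk2 stood at 4.67, 5.23 and 5.42 with CpG and gefitinib, 9.01, 9.29 and 9.10 with CpG alone, 5.30, 5.06 and 4.96 with gefitinib alone and 5.70, 5.42 and 5.14 in untreated cells. It differed by -4.03 ± 0.19 between CpG with gefitinib and CpG alone (adjusted p = 2.89e-09). Mx2, a dynamin-like GTPase of the Mx family, stood at 4.50, 4.46 and 4.38 with CpG and gefitinib, 8.08, 7.91 and 7.88 with CpG alone, 4.54, 4.46 and 4.35 with gefitinib alone and 4.50, 4.49 and 4.32 in untreated cells. It was at least 8.24-fold lower with CpG and gefitinib than with CpG alone (adjusted p = 3.09e-11), and at least 8.18-fold higher with CpG alone than in untreated cells (adjusted p = 3.01e-11). Slfn2, a Schlafen gene, differed by -2.95 ± 0.18 between CpG with gefitinib and CpG alone, and Samd9l, a translation inhibitor, by -2.28 ± 0.13. Isg20, an RNA exonuclease gene, was at least 1.81-fold lower.

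Genes that sense or edit double-stranded nucleic acid spanned a wide range of differences. Dhx58 encodes LGP2, a helicase that tunes signalling by RNA sensors, and stood at 5.18, 4.56 and 4.61 with CpG and gefitinib, 8.15, 8.18 and 8.48 with CpG alone, 5.21, 4.92 and 5.03 with gefitinib alone and 5.26, 5.58 and 4.85 in untreated cells. The difference between CpG with gefitinib and CpG alone was -3.49 ± 0.19 (adjusted p = 1.72e-08), with detection on 1 of 3 arrays of CpG with gefitinib. Eif2ak2, the gene of the kinase PKR that halts translation, stood at 9.58, 9.61 and 9.87 with CpG and gefitinib, 11.52, 11.28 and 11.69 with CpG alone, 9.52, 9.76 and 9.78 with gefitinib alone and 9.74, 9.91 and 9.85 in untreated cells. Here the arrays of CpG alone were higher by more than 1 log2 unit than all others, and the difference between CpG with gefitinib and CpG alone was -1.81 ± 0.13 (adjusted p = 2.04e-07). Adar, which encodes the adenosine deaminase ADAR1, stood at 6.03, 6.46 and 5.81 with CpG and gefitinib, 7.19, 7.47 and 7.17 with CpG alone, 6.37, 6.23 and 6.15 with gefitinib alone and 6.20, 6.13 and 6.33 in untreated cells. The difference was -1.18 ± 0.15 (adjusted p = 5.28e-05), and its other kept probes gave -1.75 and -1.94. Zbp1 encodes a sensor of left-handed nucleic acid that can trigger cell death, and stood at 6.15, 6.04 and 5.93 with CpG and gefitinib, 6.72, 6.54 and 6.86 with CpG alone, 5.97, 6.27 and 6.41 with gefitinib alone and 6.35, 6.42 and 6.46 in untreated cells. The arrays of CpG alone were the highest, by a narrow margin over untreated cells. It was lower with CpG and gefitinib than with CpG alone (-0.67 ± 0.13, adjusted p = 0.00116), while its difference between CpG alone and untreated cells did not pass the threshold (0.30 ± 0.13, adjusted p = 0.114, 95% interval 0.02 to 0.57).

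Genes of ADP-ribosylation and ubiquitin transfer also ranged widely. Parp14, an ADP-ribosyltransferase gene of macrophages, stood at 7.04, 6.65 and 6.77 with CpG and gefitinib, 10.11, 9.84 and 10.21 with CpG alone, 6.72, 6.86 and 6.75 with gefitinib alone and 6.83, 6.59 and 6.50 in untreated cells. It was 9.42-fold lower with CpG and gefitinib than with CpG alone (-3.24 ± 0.13, adjusted p = 8.72e-10). Parp12, another ADP-ribosyltransferase gene, stood at 6.86, 7.03 and 6.85 with CpG and gefitinib, 8.84, 9.09 and 8.74 with CpG alone, 6.85, 6.81 and 6.64 with gefitinib alone and 7.15, 7.16 and 7.18 in untreated cells. It differed by -1.98 ± 0.11 between CpG with gefitinib and CpG alone, and Trim21, which encodes a cytosolic antibody receptor, by -1.67 ± 0.10. Trim25, the ubiquitin ligase gene known for its role in RIG-I signalling, stood at 5.40, 5.71 and 5.75 with CpG and gefitinib, 6.08, 6.40 and 6.48 with CpG alone, 5.63, 5.77 and 5.01 with gefitinib alone and 5.92, 5.44 and 5.43 in untreated cells. The groups did not overlap between CpG with gefitinib and CpG alone, and the difference was -0.70 ± 0.20 (adjusted p = 0.0147). That call was lost without replicate 1 of CpG with gefitinib (adjusted p = 0.0631) or replicate 3 of CpG alone (adjusted p = 0.0517). Trim25 was higher with CpG alone than in untreated cells (0.72 ± 0.20, adjusted p = 0.0169), and this call too was lost without replicate 2 or 3 of either group (adjusted p between 0.0515 and 0.0657).

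Nuclear body and chromatin genes were lower with CpG and gefitinib than with CpG alone in all 4 cases, beside 15.2% of all genes. Among the 4, Sp100 passed the filter only through the arrays of CpG alone, where it is high. Pml, which builds PML nuclear bodies, differed by -1.58 ± 0.12, and Daxx, a histone chaperone gene, by -1.41 ± 0.11. Phf11d, a PHD finger gene, stood at 7.85, 7.71 and 7.86 with CpG and gefitinib, 10.27, 10.56 and 10.43 with CpG alone, 7.59, 7.36 and 7.61 with gefitinib alone and 8.11, 8.43 and 8.42 in untreated cells. It differed by -2.61 ± 0.12 between CpG with gefitinib and CpG alone (adjusted p = 3.06e-09), and both gefitinib groups lay below the untreated arrays. Sp100 was at least 1.4-fold lower. A dimmer probe of Pml, detected on 0 arrays of CpG alone, did not pass the threshold (0.11, adjusted p = 0.693). In the other 10 genes with several kept probes, each kept probe was lower with CpG and gefitinib.

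Of the genes for membrane and secreted proteins, Bst2 encodes tetherin, which holds budding virus at the cell surface, and stood at 7.85, 7.19 and 7.81 with CpG and gefitinib, 9.77, 8.97 and 9.84 with CpG alone, 7.51, 7.69 and 7.93 with gefitinib alone and 7.87, 7.94 and 7.82 in untreated cells. Replicate 2 was the lowest array in both CpG groups, and the groups did not overlap (-1.91 ± 0.22, adjusted p = 2.15e-05). Ifitm3 encodes a protein that blocks virus entry at endosomes and stood at 12.46, 12.24 and 12.33 with CpG and gefitinib, 14.01, 14.05 and 13.97 with CpG alone, 12.54, 12.17 and 12.36 with gefitinib alone and 12.50, 12.41 and 12.67 in untreated cells. The difference was -1.67 ± 0.12 (adjusted p = 1.63e-07). Lgals9, the gene of the secreted lectin galectin-9, stood at 8.14, 8.33 and 8.05 with CpG and gefitinib, 9.78, 10.18 and 9.68 with CpG alone, 7.99, 8.25 and 8.02 with gefitinib alone and 8.38, 8.58 and 8.27 in untreated cells. It differed by -1.71 ± 0.14 (adjusted p = 1.04e-06), and Ms4a6d, a tetraspanner gene of macrophages, by -1.58 ± 0.10. Ly6e, a GPI-anchored surface protein gene, stood at 10.28, 10.30 and 10.21 with CpG and gefitinib, 10.36, 10.57 and 10.24 with CpG alone, 10.36, 10.36 and 10.28 with gefitinib alone and 10.55, 10.45 and 10.35 in untreated cells. The arrays of CpG alone overlapped those of every other group, and neither comparison passed the threshold. The log2 difference was -0.13 ± 0.11 for CpG with gefitinib against CpG alone (95% interval -0.35 to 0.10, adjusted p = 0.387) and -0.06 ± 0.11 for CpG alone against untreated cells (-0.29 to 0.17, adjusted p = 0.738). Of the remaining genes, Ifi35 differed by -1.85 ± 0.13 between CpG with gefitinib and CpG alone, and Rtp4, which encodes a receptor-transporting protein, was at least 2.96-fold lower (adjusted p = 8.06e-07).

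Sizes varied widely across the 34 genes. With the 5 undetected genes at their bounds, 28 were at least 2-fold lower with CpG and gefitinib than with CpG alone, 16 at least 4-fold and 10 at least 8-fold, and the median was -1.94 log2 units. In CpG alone against untreated cells, 6 genes were at their bounds, and the corresponding counts of higher genes were 28, 15 and 10 with a median of 1.77. The 10 genes with the largest log2 differences between CpG with gefitinib and CpG alone were Oasl2, Usp18, Isg15, Rsad2, Cmpk2, Oasl1, Mx2, Dhx58, Ifit3 and Parp14.

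The next comparison asks how much CpG still did when gefitinib was present. CpG with gefitinib against gefitinib alone gave 0 of 34 genes past the threshold in limma, and 0% of all 8101 genes. At an unadjusted p under 0.05 there were 2 of the 34 genes, and 3.11% of all genes. These were Oas2 and Phf11d, which went opposite ways. Oas2 stood at 7.21, 6.87 and 7.11 with CpG and gefitinib against 7.54, 7.51 and 7.36 with gefitinib alone (-0.41 ± 0.15, adjusted p = 1). Phf11d stood at 7.85, 7.71 and 7.86 with CpG and gefitinib against 7.59, 7.36 and 7.61 with gefitinib alone (0.29 ± 0.12, adjusted p = 1). Oas3, Mx2, Rtp4, Isg20 and Sp100 were detected in neither of these groups, so their values here are those of the floor. The differences of the 29 other genes lay between -0.41 and 0.29 log2 units with a median of 0.00, 15 below 0 and 14 above. A p that misses the threshold does not show equal levels, so the intervals matter. All 29 of their 95% intervals lay within 1 log2 unit of 0, the farthest bounds being -0.74 for Oas2 and 0.81 for Rsad2. For Usp18 the interval was -0.46 to 0.06 log2 units, against 4.32 to 4.84 for the CpG effect without gefitinib. For Isg15 the corresponding intervals were -0.25 to 0.45 and 3.92 to 4.63, and for Oasl2 -0.11 to 0.35 and 4.48 to 4.94.

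**Figure D2:**
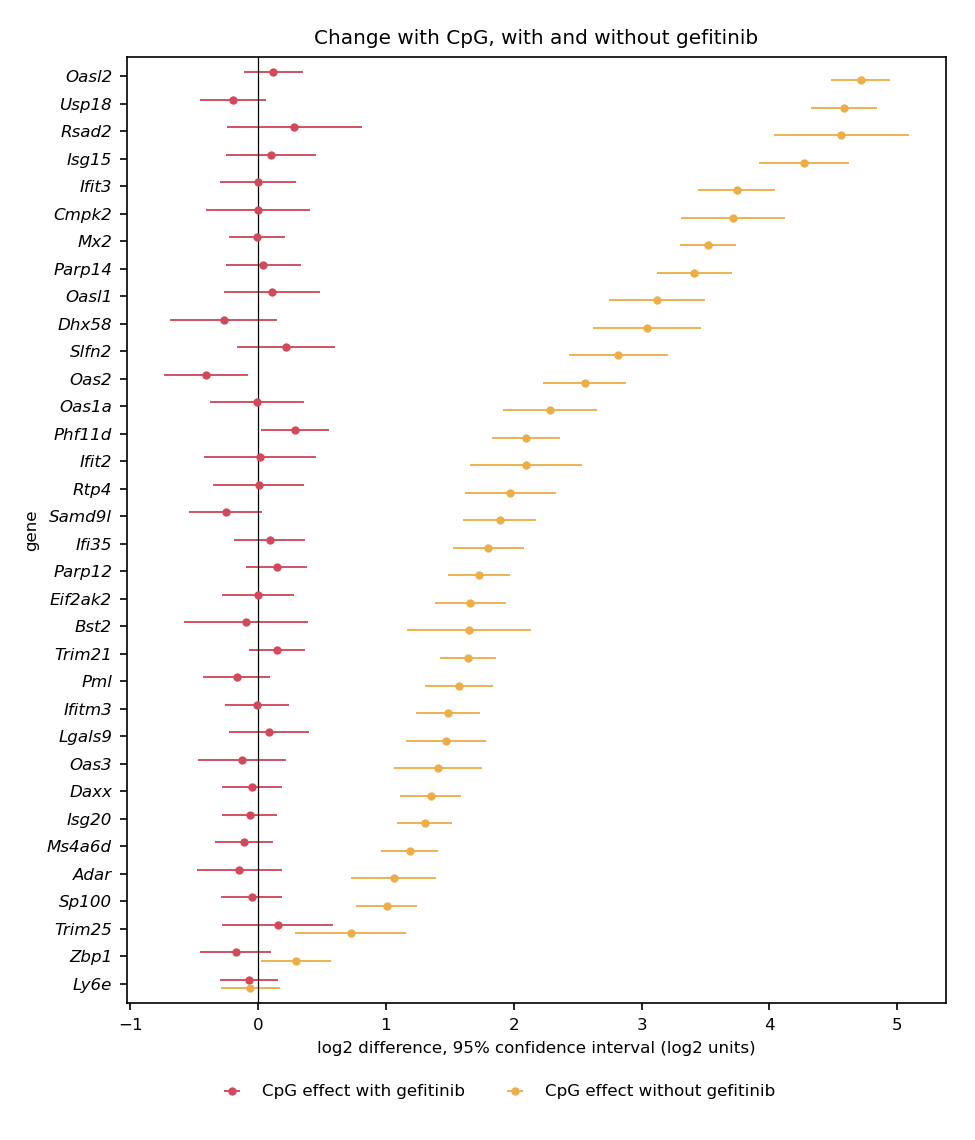
Fitted log2 difference with CpG for each of the 34 measured genes (rows), as CpG with gefitinib minus gefitinib alone and as CpG alone minus untreated, with 95% confidence intervals (bars, log2 units). Oas3, Mx2, Rtp4, Isg20 and Sp100 were detected with CpG alone only. The effects with gefitinib lie between -0.41 and 0.29, and those without it run from -0.06 for Ly6e to 4.71 for Oasl2.

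The difference between these CpG effects was tested directly as an interaction. It passed the threshold for 31 of the 34 genes, each with a smaller CpG effect when gefitinib was present, against 6.00% of all genes in that direction and 6.34% in the other. Of the 29 genes that pass the filter without the arrays of CpG alone, 26 did, against 5.23% of all genes that pass in this way. The 3 other genes were Trim25 (-0.57 ± 0.28, adjusted p = 0.228), Zbp1 (-0.47 ± 0.18, adjusted p = 0.117) and Ly6e (-0.01 ± 0.15, adjusted p = 0.981). Without replicate 1 of gefitinib alone Zbp1 passed the threshold (-0.59, adjusted p = 0.0474).

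Gefitinib alone moved few of these genes in unstimulated cells. Against untreated cells 2 of the 34 were lower and 0 higher, where 2.84% of all genes were lower and 4.96% higher. Phf11d stood at 7.59, 7.36 and 7.61 with gefitinib alone against 8.11, 8.43 and 8.42 in untreated cells (-0.80 ± 0.12, adjusted p = 0.00298). Every array with gefitinib alone was lower than every untreated array. The dimmer kept probe of Phf11d, detected on all 12 arrays, gave -0.46 and did not pass (adjusted p = 0.0626, with each gene at its dimmest kept probe). Parp12 stood at 6.85, 6.81 and 6.64 with gefitinib alone against 7.15, 7.16 and 7.18 in untreated cells (-0.39 ± 0.11, adjusted p = 0.0473), again without overlap. The Parp12 call is fragile, since leaving out any 1 array other than replicates 2 and 3 of CpG alone gave an adjusted p between 0.0546 and 0.183. Oasl1 (-0.52 ± 0.17, adjusted p = 0.086) and Oas1a (-0.49 ± 0.17, adjusted p = 0.0938) did not pass the threshold. Leaving out the 5 genes detected in neither group, the median of 29 differences was -0.15 log2 units with 21 below 0, and 50.4% of all genes were below 0. On every array with gefitinib alone, 7 of the 34 lay below every untreated array, as did 14.4% of all genes.

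With both agents the levels were compared with those of untreated cells as well, which shares the untreated arrays with the comparison just given. Of the 34 genes 1 was lower in CpG with gefitinib than in untreated cells and 0 were higher, where 1.33% of all genes were lower and 2.54% higher. The gene was Phf11d, at 7.85, 7.71 and 7.86 with CpG and gefitinib against 8.11, 8.43 and 8.42 in untreated cells (-0.52 ± 0.12, adjusted p = 0.0369). That call was lost without any 1 replicate of CpG with gefitinib, or without replicate 2 or 3 of untreated cells, with an adjusted p between 0.0837 and 0.122. The dimmer kept probe of Phf11d gave -0.49 and did not pass either (adjusted p = 0.0735, with each gene at its dimmest kept probe). Ms4a6d differed by -0.40 ± 0.10 (adjusted p = 0.0529). Over the 29 genes detected in either group the median was -0.16 log2 units, with 24 below 0, and 50.6% of all genes were below 0. For 8 of the 34, every array lay below every untreated array, against 12.2% of all genes. All 29 of their intervals lay within 1 log2 unit of 0, and the highest bound was 0.97, for Rsad2.

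**Figure D3:**
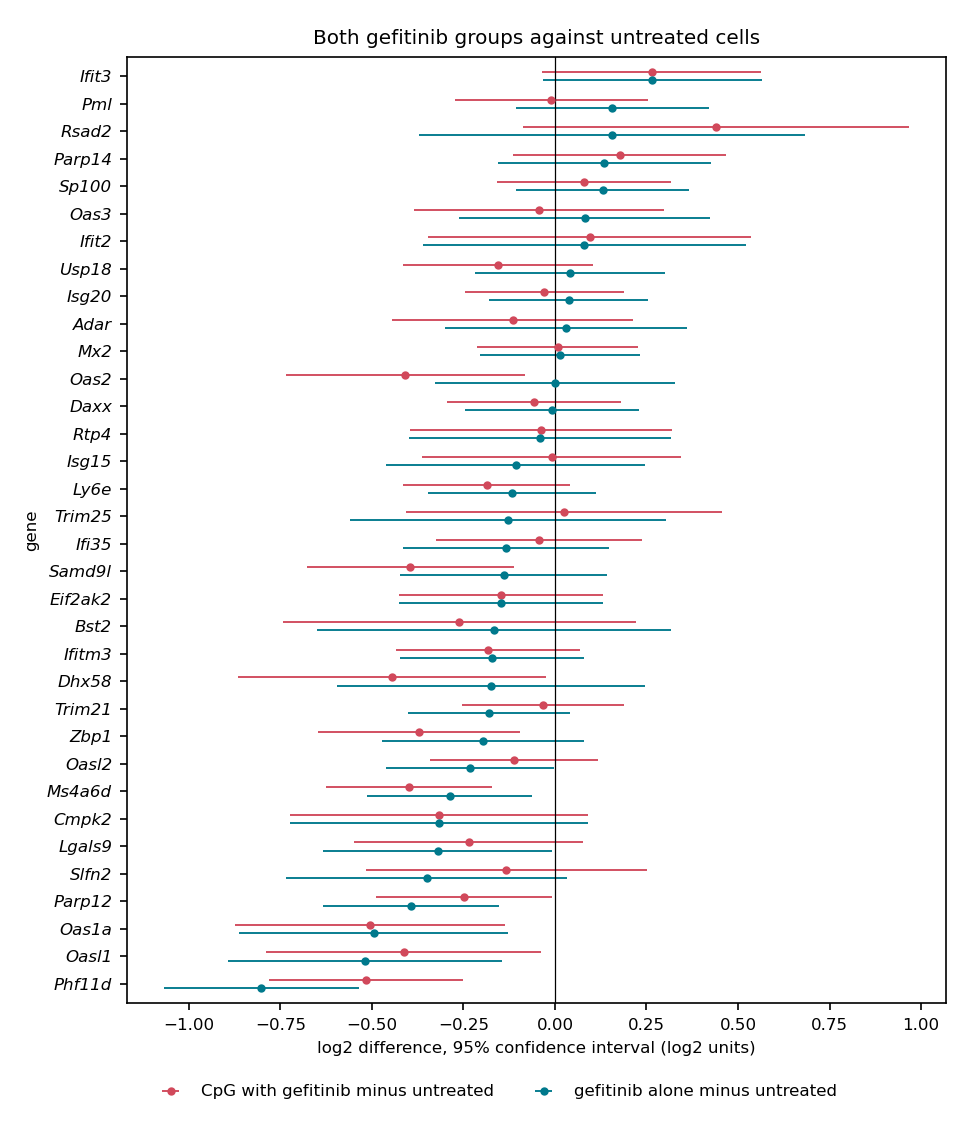
Fitted log2 difference from untreated cells for each of the 34 measured genes (rows), as CpG with gefitinib minus untreated and gefitinib alone minus untreated, with 95% confidence intervals (bars, log2 units). Oas3, Mx2, Rtp4, Isg20 and Sp100 were detected in none of the 3 groups. The comparisons share the 3 untreated arrays. Phf11d is lowest in both, at -0.52 with CpG and gefitinib and -0.80 with gefitinib alone.

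Genes upstream of the antiviral set were described from a list of 37 genes of interferon production and signalling, of which 25 were measured. In CpG with gefitinib against CpG alone, 11 of the 25 were lower and 1 was higher, beside 15.2% lower and 22.0% higher among all genes. CpG alone against untreated cells gave 9 higher and 1 lower, beside 10.0% higher and 15.3% lower among all genes. There were 3 genes that passed the filter only through the arrays of CpG alone. Of the 22 others, 8 were lower and 1 higher in CpG with gefitinib than in CpG alone. Among all genes that pass without those arrays 14.4% were lower. In CpG alone against untreated cells 6 of the 22 were higher and 1 lower, beside 9.17% higher among all such genes. The exception in both was Ifnar2, an interferon receptor subunit gene named here after its values were seen (0.52 ± 0.13 for CpG with gefitinib against CpG alone and -0.64 ± 0.13 for CpG alone against untreated cells). Ifnb1, the interferon beta gene, stood at 4.37, 4.65 and 4.45 with CpG and gefitinib, 7.67, 7.78 and 7.98 with CpG alone, 4.27, 4.34 and 4.59 with gefitinib alone and 4.45, 4.53 and 4.48 in untreated cells. It was at least 7.46-fold lower with CpG and gefitinib than with CpG alone (adjusted p = 2.57e-10). Irf7, the regulator of interferon genes that interferon itself induces, stood at 4.61, 4.38 and 4.30 with CpG and gefitinib, 7.74, 7.96 and 7.98 with CpG alone, 4.48, 4.47 and 4.89 with gefitinib alone and 4.42, 4.43 and 4.43 in untreated cells. It was at least 7.88-fold lower (adjusted p = 3.91e-10). The arrays of CpG alone were the only ones on which Ifnb1 and Irf7 were detected. Irf9, the DNA-binding subunit of the interferon-activated complex, stood at 7.11, 7.05 and 7.03 with CpG and gefitinib, 9.50, 9.41 and 9.24 with CpG alone, 7.18, 7.16 and 7.21 with gefitinib alone and 7.60, 7.45 and 7.34 in untreated cells. It was lower with CpG and gefitinib than with CpG alone (-2.32 ± 0.10, adjusted p = 1.78e-09), and also lower than in untreated cells (-0.40 ± 0.10, adjusted p = 0.0494). Stat2, which encodes another subunit of that complex, stood at 5.72, 5.63 and 5.84 with CpG and gefitinib, 6.80, 7.06 and 6.68 with CpG alone, 6.10, 6.10 and 5.67 with gefitinib alone and 5.31, 5.43 and 5.42 in untreated cells. Stat2 was lower with CpG and gefitinib than with CpG alone (-1.12 ± 0.14, adjusted p = 2.91e-05), but higher with gefitinib alone than in untreated cells (0.56 ± 0.14, adjusted p = 0.0236). Ikbke, the gene of an interferon-inducing kinase, differed by -1.89 ± 0.19 between CpG with gefitinib and CpG alone. Between CpG with gefitinib and gefitinib alone 0 of the 25 passed the threshold.

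Other gene lists, chosen with earlier results of these data known, were set beside these counts. All 8 measured interferon-inducible GTPase genes were lower in CpG with gefitinib than in CpG alone, beside 15.2% of all genes, among them Igtp (-3.14 ± 0.12). They include Gbp2 and Gbp7, which passed the filter only through the arrays of CpG alone, and the 6 others had a median of -2.41 log2 units. Of 15 measured MHC class I and immunoproteasome genes 5 were lower, and the 14 that pass without the arrays of CpG alone had a median of -0.30 with the same count of 5. Of 19 measured inflammatory genes known as NF-kB targets 18 were lower, but 7 of the 19 passed only through the arrays of CpG alone. Among the 12 others 11 were lower, with a median of -4.04 log2 units. Of all genes that pass without the arrays of CpG alone 14.4% were lower, the share to set beside the 5 of 14 and the 11 of 12. In gefitinib alone against untreated cells, 3 of the 8 GTPase genes were lower, beside 2.84% of all genes, namely Igtp (-0.54 ± 0.12), Ifi47 (-0.84 ± 0.15) and Gvin1 (-0.83 ± 0.14). No test of a difference between lists was made.

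**Figure D4:**
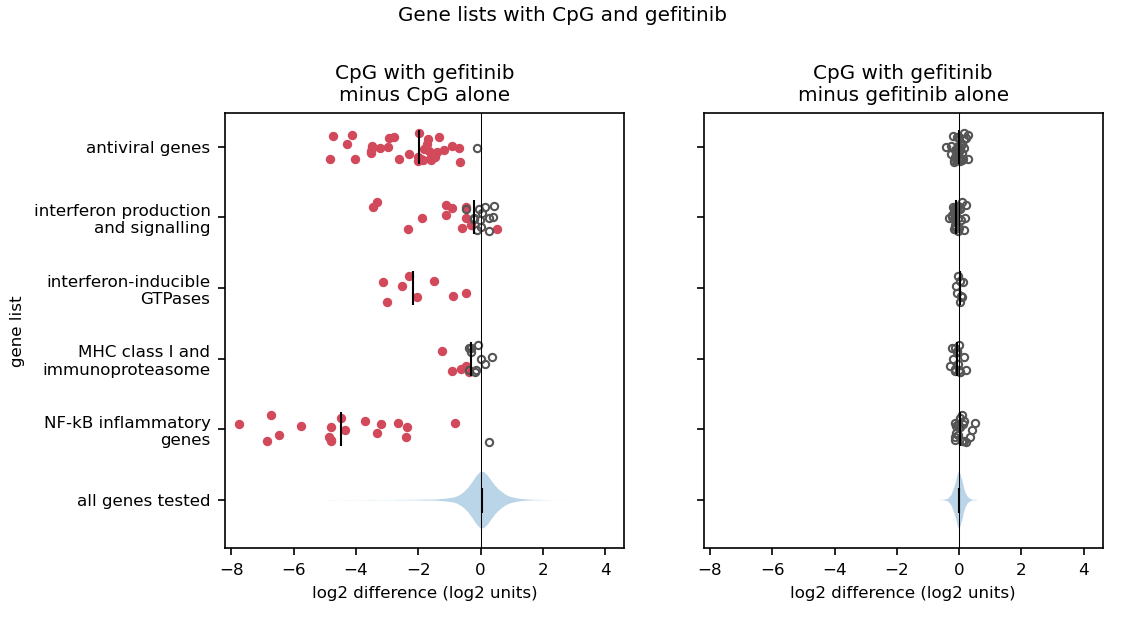
Log2 difference of each measured gene in 5 lists, for CpG with gefitinib minus CpG alone (left) and CpG with gefitinib minus gefitinib alone (right), with filled points for genes past the adjusted p threshold and open points for the others. Vertical bars are medians, and the shape at the bottom is the distribution over all 8101 genes. The antiviral genes have a median of -1.99 on the left and 0.00 on the right, where no point is filled.

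The macrophage label and the depth of detection were checked. The arrays detected 10705 to 11181 of their 25697 probes. Of 10 macrophage markers 7 had a probe, and 6 of these were detected on all 12 arrays, while Itgam was detected on 3. All 6 fibroblast markers and all 5 lymphocyte markers with a probe were detected on 0 arrays. Among markers of epithelial cells, plasmacytoid dendritic cells and granulocytes, those detected on 3 or more arrays were Tcf4 and S100a8 on 12 and Cdh1 on 11, and their part in these results was not tested. Precision is limited by 3 arrays a group, and the standard error of a difference between groups had a median of 0.13 log2 units over the 34 genes.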

How the data were processed

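RNA of 12 RAW264.7 cultures was hybridised to Illumina mouse bead arrays. The deposited table holds, per the file headers, a summarised probe intensity and a detection p-value for each array. The submitters' processing notes name GenomeStudio 2010.2. The authors' own deposited normalized values, used as an alternative, had a median of 120 on every array and are on a linear scale. The medians do not tell which normalization was used, and how the values were centred is not given in the sources used here.

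From the intensities, limma 3.58.1 in R 4.3.3 was used for normexp background correction guided by detection p-values, quantile normalization with an offset of 16 and log2 transformation (neqc). Probes detected (p under 0.05) on at least 3 arrays were kept, and the brightest represented its gene. Of 25697 probes 23978 had 1 gene symbol, 1719 were not named, and 8 symbols were updated. A linear model over all 12 arrays with empirical Bayes variances gave 6 contrasts, adjusted by Benjamini-Hochberg over 8101 genes, and was tested on simulated data. Values on every array are given for the 10 genes with the largest and the 3 with the smallest difference between CpG with gefitinib and CpG alone, a list of well-known genes, and genes called in the other contrasts. From the other lists at most 5 genes each are named, by lowest adjusted p, besides key interferon regulators and exceptions. The genes and lists were chosen with earlier results of these data known. Alternatives covered background, offset, normalization, filter, probe choice, variance, a replicate block and each array left out. Same-numbered arrays deviated together, with all 3 correlations of their deviations over 0.1, between CpG with gefitinib and CpG alone (0.11 to 0.35) and between CpG with gefitinib and gefitinib alone (0.24 to 0.28), so the numbers were taken to pair these groups from the data, and the labels give no reason for it. In the other group pairs at most 2 of 3 did. The main fit, with its standard errors, intervals and adjusted p-values, did not pair arrays by number.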

Additional observations from a re-analysis of the deposited data

Results flagged for a closer look

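For 31 of the 34 measured genes the CpG effect with gefitinib (CpG with gefitinib minus gefitinib alone) differed from the CpG effect without it (CpG alone minus untreated) by the interaction test in limma, at an adjusted p under 0.05 over all 8101 genes. Each log2 value below is the effect with gefitinib minus the effect without it, so a negative value is a smaller CpG effect in the presence of gefitinib. Among all genes tested, 6.00% were lower and 6.34% higher by this test. Of the 29 genes that pass the detection filter without the arrays of CpG alone, 26 differed, against 5.23% lower among all such genes. In the ISG15 system the values were -4.17 for Isg15 and -4.78 for Usp18. In the OAS family they were -4.59 for Oasl2, -3.01 for Oasl1, -2.96 for Oas2, -2.29 for Oas1a and -1.53 for Oas3. The IFIT genes gave -3.75 for Ifit3 and -2.08 for Ifit2, and the other effectors gave -4.28 for Rsad2, -3.72 for Cmpk2, -3.52 for Mx2, -2.60 for Slfn2, -2.14 for Samd9l and -1.37 for Isg20. Among sensing and editing genes they were -3.31 for Dhx58, -1.66 for Eif2ak2 and -1.21 for Adar, and among genes of ADP-ribosylation and ubiquitin transfer -3.37 for Parp14, -1.58 for Parp12 and -1.50 for Trim21. Nuclear body genes had -1.81 for Phf11d, -1.74 for Pml, -1.40 for Daxx and -1.06 for Sp100. Genes for membrane and secreted proteins had -1.74 for Bst2, -1.50 for Ifitm3, -1.39 for Lgals9 and -1.30 for Ms4a6d, and the remaining genes -1.97 for Rtp4 and -1.71 for Ifi35. Oas3, Mx2, Rtp4, Isg20 and Sp100 were detected with CpG alone and in no other group, and their fitted values are no bounds. The cause of these differences was not tested.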

How the results depend on the processing

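In CpG with gefitinib against CpG alone, between 27 and 33 genes were lower when 1 array was left out, and between 28 and 33 under the other alternatives, with 0 higher in each. The counts of 27 and 28 are from settings under which 29 genes passed the detection filter. The corresponding counts of higher genes in CpG alone against untreated cells were 26 to 32 and 27 to 32, and for the interaction 26 to 32 and 26 to 31 were lower. Among all genes tested under each setting, 970 to 1251 and 789 to 1388 were lower in CpG with gefitinib against CpG alone. In CpG alone against untreated cells 600 to 796 and 485 to 940 were higher, and for the interaction 363 to 452 and 281 to 555 were lower. CpG with gefitinib against gefitinib alone gave 0 calls under every alternative run. The median difference between CpG with gefitinib and CpG alone was -1.99, against -1.47 without background correction, -1.52 with the authors' deposited normalized values and -1.73 with an offset of 50. The dimmest kept probe of Pml reversed its values, to 0.11 for CpG with gefitinib against CpG alone and -0.20 for CpG alone against untreated cells, neither past the threshold.

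The count of lower genes in gefitinib alone against untreated cells was 2, and it was 1 with cyclic loess, median scaling, the dimmest probe or only the groups compared. It was 3 with the mean of a gene's probes and with a trended and robust variance. Among all 8101 genes 230 were lower in the main setting, 260 with the mean of probes and 360 with that variance. For the 34 genes it ranged from 1 to 2 with 1 array left out. An equal count need not be the same genes. With the dimmest probe neither Phf11d (limma, adjusted p = 0.0626) nor Parp12 (adjusted p = 0.0672) passed, so the 1 gene counted was another. Parp12 also missed without background correction (adjusted p = 0.0694) and with the authors' values (adjusted p = 0.0626), where the count stayed at 2. In CpG with gefitinib against untreated cells the count was 1. It was 0 with median scaling or only the groups compared. It was 2 without background correction, with cyclic loess, an offset of 50, the authors' values, no detection filter, detection on all 3 arrays of a group or on at least 6 arrays, the mean of a gene's probes, or a trended and robust variance. It was also 2 with a detection filter that ignores the CpG arrays, a setting chosen after seeing the data. It ranged from 0 to 2 with 1 array left out. With the dimmest probe it was 1 again, but Phf11d did not pass (limma, adjusted p = 0.0735). Among all genes tested under each setting, 108 were lower in the main one. There were 16 and 81 where the count of the 34 was 0, and 109 to 190 where it was 2. The cause was not tested.

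With the replicate number as a block, 33 genes were lower in CpG with gefitinib against CpG alone, 0 passed in CpG with gefitinib against gefitinib alone, 32 were higher in CpG alone against untreated cells and 31 passed for the interaction. Over all 8101 genes the block gave 1341 lower in CpG with gefitinib against CpG alone, beside 1233 without it. It gave 888 higher in CpG alone against untreated cells, beside 813, and 547 lower for the interaction, beside 486. The block gave 3 lower genes in gefitinib alone against untreated cells and 2 in CpG with gefitinib against untreated cells, groups whose numbers were not taken to pair. Over all 8101 genes it gave 378 lower in gefitinib alone against untreated cells, beside 230 without it. In CpG with gefitinib against untreated cells the block gave 189, beside 108. Of the 34 genes, it changed the call of none in CpG with gefitinib against CpG alone, in CpG alone against untreated cells or in the interaction. A slide block was not run, because the slide is not given in the sources used here.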
